A study of Mus musculus with 4 samples.

Results

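Lysophosphatidic acid (LPA) and sphingosine 1-phosphate (S1P) are small signalling lipids, and the genes described here are their receptors and Enpp2, which encodes autotaxin, the secreted enzyme that makes most extracellular LPA. The set was gathered by symbol around Lpar1, which was chosen by its large negative log2 fold change in the series, and 8 of its 9 genes are in the table of 13289 genes: Lpar1, Lpar2, Lpar4, Lpar6, S1pr1, S1pr2, S1pr3 and Enpp2. Lpar3 was not analysed here. Because Lpar1 was chosen for its difference between these same libraries, the levels and fold changes of the 8 genes are given as a description, without a test.

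The series measured poly(A) RNA of the cerebral cortex of mice at embryonic day 15 in 4 libraries, 2 of control cortex (titled WT) and 2 of Lhx2 cKO cortex. Lhx2 is a LIM-homeodomain transcription factor of cortical progenitors, and cKO is read as conditional knockout. The Cre driver, the allele, the strain and whether libraries came from separate embryos are not given in the sources used here, so the spread within a group may be technical. The comparison asks which transcripts differ in cortex in which Lhx2 was targeted.

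LPA acts outside the cell through G protein-coupled receptors of 2 kinds. Lpar1, Lpar2 and Lpar3 belong with the S1P receptors to the Edg family, while Lpar4, Lpar5 and Lpar6 are related to the P2Y nucleotide receptors. Lpar1 is known as a gene of the ventricular zone, where the dividing radial glia of the embryonic cortex lie, and S1pr1 is known for its part in blood vessel growth.

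Each library held 22294237 to 24609627 counts over the genes of the table, so that 3 counts, taken as the floor of detection, equal 0.122 to 0.135 CPM (counts scaled to a common library total with edgeR's TMM factors). Lhx2 itself measured 316 and 287 CPM in control against 239 and 247 CPM in Lhx2 cKO (-0.31 on the log2 scale, SE 0.0976; adjusted p 0.0191 in edgeR's quasi-likelihood test). It was lower in both Lhx2 cKO libraries, and the adjusted p was 0.176 without control 1, 0.102 without Lhx2 cKO 1 and 0.0538 without Lhx2 cKO 2. The cortical genes Emx1, Neurod6, Tbr1 and Bcl11b were present in each library. Their summed level was 1098 to 1168 CPM in control and 922 to 925 CPM in Lhx2 cKO, with Neurod6, at a mean of 604 CPM in control, the largest part. Emx1 averaged 113 CPM in control and 39.0 CPM in Lhx2 cKO, a log2 fold change of -1.54. Neurod6 was at -0.32, Bcl11b at -0.25 and Tbr1 at 0.08 on that scale.

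Lpar1 (ENSMUSG00000038668.15) was the outlier of the set. Its transcript measured 33.6 and 36.3 CPM in control against 2.72 and 2.57 CPM in Lhx2 cKO, from 815 and 908 counts against 62 and 59. All 4 values lay far above the floor, the groups did not overlap, and replicates differed little within each group. Control averaged 35 ± 1.92 CPM (SD, n = 2), Lhx2 cKO averaged 2.65 ± 0.111 CPM (SD, n = 2), and the difference was 13.2-fold, with 7.57% of the level in control remaining. The log2 fold change was -3.72 (SE 0.165), and the authors' deposited table gives -3.73. Of the 13288 genes tested, 2 had a lower log2 fold change. Among the 5810 of these with a control level at or above that of Lpar1, 0 did. Lpar1 was chosen by this fold change and the level cut was set at its own level, so both ranks are description only.

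RefSeq lists 3 start sites for Lpar1, and the counts do not tell which of them the reads came from. The 250 bases before the most upstream start and before the most downstream one are shown, because Lpar1 is the gene on which the set turns and the targeted gene encodes a homeodomain protein. Capitals mark TAATTA, the letters that LIM-homeodomain proteins are known to prefer, which read the same on both strands. Both windows are from build GRCm38.p6, minus strand, 5′ to 3′, while the authors' processing notes name mm39.
Lpar1 upstream start, chr4:58553492-58553741: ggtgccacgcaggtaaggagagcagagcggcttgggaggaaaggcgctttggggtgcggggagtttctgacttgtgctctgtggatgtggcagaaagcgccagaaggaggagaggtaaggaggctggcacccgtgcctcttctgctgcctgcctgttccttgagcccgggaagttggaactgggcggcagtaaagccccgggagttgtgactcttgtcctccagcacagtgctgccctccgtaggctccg
Lpar1 downstream start, chr4:58499404-58499653: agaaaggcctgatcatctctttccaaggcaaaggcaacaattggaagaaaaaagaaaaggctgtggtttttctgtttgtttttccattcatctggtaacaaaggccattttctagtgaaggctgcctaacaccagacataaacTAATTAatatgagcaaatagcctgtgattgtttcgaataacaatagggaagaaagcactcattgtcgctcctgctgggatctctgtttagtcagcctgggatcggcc
The upstream window is 62% G and C and holds no TAATTA. The downstream window is 41.6% G and C and holds it once, beginning 107 bases before the start. The window of the third start, which overlaps the upstream one, is 70% G and C and holds none, so 1 of the 3 windows has the letters. Of 32817 such windows over all RefSeq starts in the table used, 1590, or 4.85%, held these letters. None of the windows of Lpar2, Lpar4, Lpar6, S1pr2 and S1pr3 did, each gene having fewer windows than Lpar1. No window of S1pr1 or Enpp2 was searched. Binding of Lhx2 was not analysed here, so the match is a description of the sequence only.

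The other LPA receptors did not share the low level of Lpar1. Lpar2 (ENSMUSG00000031861.17), like Lpar1 a receptor of the Edg type, was at 24 and 20.6 CPM in control and at 25.9 and 28.0 CPM in Lhx2 cKO. Both Lhx2 cKO libraries lay above both control libraries, the nearest of them by less than the control replicates differed from each other, and the log2 fold change was 0.27 (SE 0.124), or 0.17 without control 2. Lpar4 (ENSMUSG00000049929.8), a P2Y-type receptor, was at 9.86 and 8.08 CPM in control and 10.9 and 11.1 CPM in Lhx2 cKO, a log2 fold change of 0.30 (SE 0.175), or 0.16 without control 2. Its groups did not overlap either. Lpar6 (ENSMUSG00000033446.8), the other P2Y-type receptor, was at 8.83 and 7.12 CPM in control and 9.76 and 5.79 CPM in Lhx2 cKO. Its Lhx2 cKO libraries enclosed both control values, and the log2 fold change of -0.04 (SE 0.21) became -0.46 when Lhx2 cKO 1 was left out and 0.29 when Lhx2 cKO 2 was. In the GENCODE M21 annotation Lpar6 shares 408 exon bases with Rb1 on the opposite strand, and with the use of strand in counting not given, its reads are uncertain there.

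S1pr1, S1pr2 and S1pr3, the S1P receptors of the set, lay at 103% to 125% of their control means. S1pr1 (ENSMUSG00000045092.9), which couples to Gi proteins, was at 12.3 and 17.4 CPM in control and at 14.2 and 16.4 CPM in Lhx2 cKO. The control values enclosed the Lhx2 cKO values, and the log2 fold change of 0.04 (SE 0.158) was -0.20 without control 1 and 0.31 without control 2. S1pr2 (ENSMUSG00000043895.7), which couples to several G proteins, was at 6.19 and 6.0 CPM in control and 7.43 and 7.79 CPM in Lhx2 cKO. Its groups did not overlap, replicates were close, and the log2 fold change was 0.32 (SE 0.203). S1pr3 (ENSMUSG00000067586.5), which likewise couples to several G proteins, was at 9.57 and 11.2 CPM in control and 12.9 and 10.8 CPM in Lhx2 cKO. Its groups overlapped, with a log2 fold change of 0.19 (SE 0.168), which was 0.06 without control 1 or without Lhx2 cKO 1, 0.31 without control 2 and 0.30 without Lhx2 cKO 2.

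Enpp2 (ENSMUSG00000022425.17), the LPA-making enzyme, differed in the opposite direction from Lpar1. It was at 5.73 and 8.76 CPM in control and at 11.6 and 11.4 CPM in Lhx2 cKO. Both Lhx2 cKO libraries lay above both control libraries, and the control replicates were further apart than the Lhx2 cKO replicates. Control averaged 7.25 ± 2.14 CPM (SD, n = 2) and Lhx2 cKO 11.5 ± 0.109 CPM (SD, n = 2). The log2 fold change was 0.66 (SE 0.189), and the size rests on the control library used: 0.38 without control 1 and 1.0 without control 2. In M21, 345 exon bases of Enpp2 are shared with Gm26684 on the opposite strand.

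**Figure D1:**
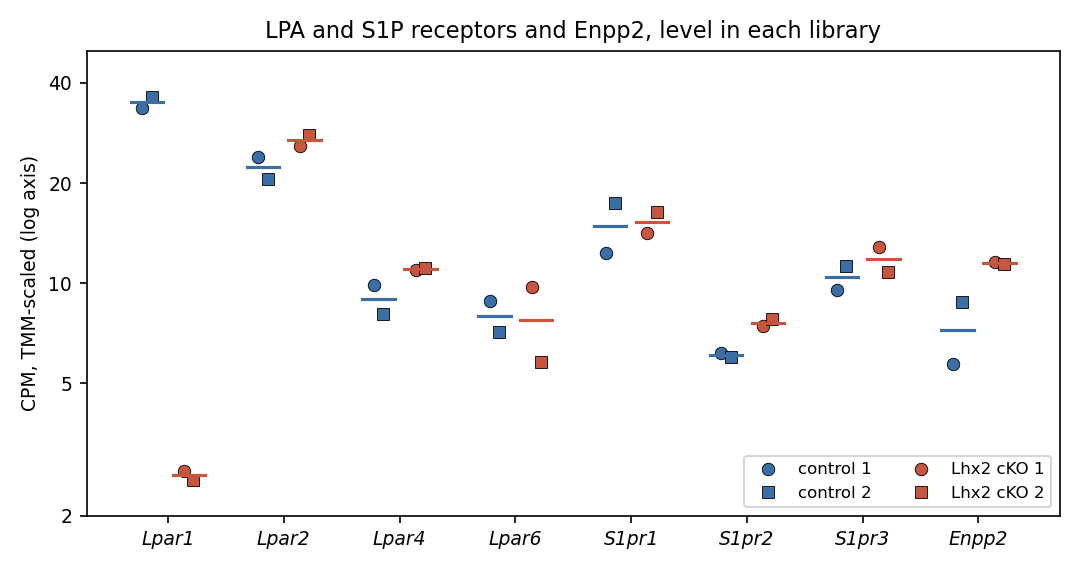
Level of each of the 8 genes in each library, in TMM-scaled CPM on a log axis; circles are replicate 1, squares replicate 2, and lines the group means. Lpar1 is at 33.6 and 36.3 CPM in control and at 2.72 and 2.57 CPM in Lhx2 cKO, while the groups of each other gene lie within or next to each other's range.

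Set against the whole table, the 7 genes other than Lpar1 had log2 fold changes from -0.04 to 0.66 with a median of 0.27, against a median of 0.003 over all genes tested. Over all tested genes 20.8% had an adjusted p under 0.05 in edgeR, termed called here, 11.6% higher and 9.17% lower. Groups that did not overlap were seen for 5 of the 8 genes, against 59.3% of all tested genes: 4 were higher in Lhx2 cKO (30.2% of all genes) and 1 was lower (29.1%). Since the contrast itself chose Lpar1, nothing is read from these shares. A larger absolute log2 fold change than that of Lpar1 was seen in 0.0301% of tested genes, than that of Enpp2 in 9.51%, and than those of S1pr1 and Lpar6 in 89.0% and 89.1%.

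**Figure D2:**
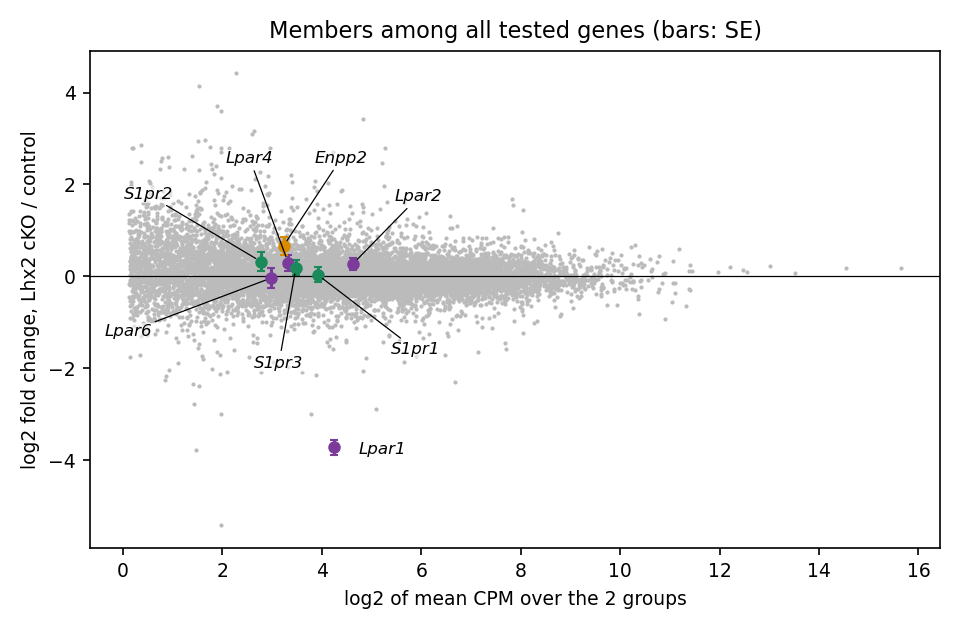
Log2 fold change between Lhx2 cKO and control for all 13288 tested genes (grey), against the log2 of the mean CPM; LPA receptors are purple, S1P receptors green and Enpp2 orange, with bars for the SE. Lpar1, which was chosen by this fold change, is at -3.72. No tested gene with a control level at or above that of Lpar1 lies lower. The other 7 genes lie within the grey cloud between -0.04 and 0.66.

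To compare levels between genes, counts were divided by the deposited gene length and scaled to TPM, a transcript level per length, over the genes of the table. In control, Lpar1 had the highest level of the 8 genes, 26.7 ± 2.85 TPM (SD, n = 2). It was followed by S1pr1 at 16.1 ± 4.68 TPM and Lpar2 at 11.5 ± 0.659 TPM (SD, n = 2), and the libraries of these 3 genes did not overlap. S1pr3 at 7.65 TPM and Lpar4 at 6.90 TPM overlapped, as did Lpar6 at 4.81 TPM and Enpp2 at 4.14 TPM, and S1pr2 was lowest at 2.50 TPM. In Lhx2 cKO the order of the other receptors was kept, with S1pr1 at 15.6, Lpar2 at 13.3, S1pr3 at 8.36 and Lpar4 at 8.15 TPM, while Lpar1 was last at 1.94 ± 0.219 TPM (SD, n = 2), below every library of S1pr2 at 2.99 TPM. Enpp2 at 6.23 TPM stood before Lpar6 at 4.57 TPM there, with overlapping libraries.

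The make-up of the LPA receptor transcripts differed between the groups. Lpar1 made up 50.2% and 56.6% of the summed TPM of the 4 LPA receptors in control against 6.96% and 6.87% in Lhx2 cKO. Lpar2 took the largest share in Lhx2 cKO, 45.0% and 50.8%, against 24.4% and 21.8% in control. The sum of the 4 was 49.2 and 50.7 TPM in control and 30.1 and 26.0 TPM in Lhx2 cKO, which is 56.0% of the control mean. Without Lpar1 the sums were 24.5 and 22 TPM in control and 28.0 and 24.2 TPM in Lhx2 cKO, and these groups overlapped. The 3 S1P receptors summed to 22 and 30.5 TPM in control and 27.9 and 26.1 TPM in Lhx2 cKO, with S1pr1 at 54.9% to 63.6% of the sum in every library.

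**Figure D3:**
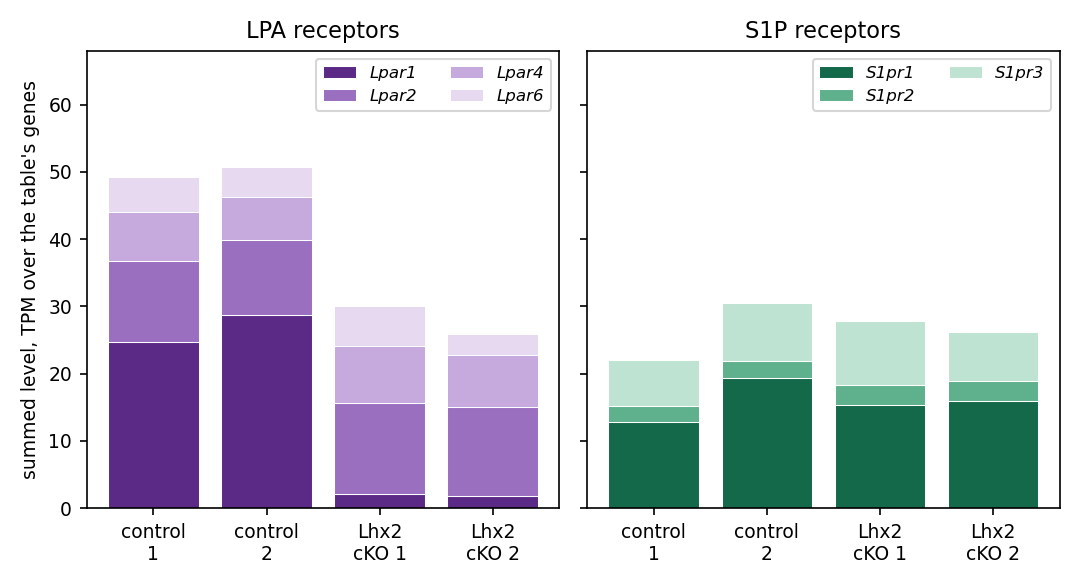
Summed level of the 4 LPA receptors (left) and the 3 S1P receptors (right) in each library, in TPM over the genes of the table, stacked by gene. The Lpar1 segment is 24.7 and 28.7 TPM in control and 2.09 and 1.78 TPM in Lhx2 cKO, while the S1P receptor bars of the 2 groups overlap.

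Genes whose pattern over the 4 libraries was nearest to that of Lpar1 were found by the distance of log2 CPM centred per gene, among genes that averaged at least 10 CPM. The nearest was Lmo1, a LIM-only transcription cofactor, at a distance of 0.841 and a log2 fold change of -2.90. Col1a1, a collagen of connective tissue, followed at a distance of 1.09, then Sema5a, an axon guidance semaphorin, at 1.39, Xdh at 1.58 and Ly6g6e at 1.74. Sema5a was at 157 and 182 CPM in control and 32.8 and 35.7 CPM in Lhx2 cKO. With 2 libraries in each group this distance mostly ranks genes by the size of their fall.

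Markers of the cells that could carry these transcripts moved to different degrees, and in bulk tissue fewer cells of a type and less RNA per cell cannot be told apart. Markers counted as rising or falling are called genes, and over all tested genes 11.6% were called higher and 9.17% lower. The 10 radial glia markers summed to 786 and 848 CPM in control and to 793 and 767 CPM in Lhx2 cKO, 95.5% of the control mean, with a median log2 fold change of -0.20. That median was -0.03 without Lhx2 cKO 2, -0.10 without control 2 and -0.10 with only genes of a mean count of at least 50. Of them 3 fell, among them Pax6 at -1.24 and Nes at -0.40. Slc1a3 rose at 0.27 (adjusted p 0.0425 in edgeR, 0.0603 with library totals and 0.0877 with DESeq2). The log2 fold change of Slc1a3 was 0.13 without control 1, 0.41 without control 2, 0.30 without Lhx2 cKO 1 and 0.24 without Lhx2 cKO 2. Without Lhx2 cKO 2 the number of these markers that fell was 1. Lpar1 was at 7.57% of its control level. The summed level of the markers weights the abundant ones most, and the number of radial glia was not measured. Of 8 intermediate progenitor markers 6 fell, with a sum of 61.6% of control, among them Eomes at -1.66.

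Lpar1 is also known from meningeal fibroblasts and the oligodendrocyte lineage. Of the 8 meningeal markers 4 were in the table, and Col1a1 alone was called, at 25.7 and 23.0 CPM in control and 4.44 and 1.65 CPM in Lhx2 cKO. The other 3 were not lower to that degree: Col1a2 had a log2 fold change of 0.25 (SE 0.184), Col3a1 0.20 (SE 0.15) and Foxc1 -0.03 (SE 0.234). The summed level of the 4 was 51.1 to 51.6 CPM in control and 33 to 33.8 CPM in Lhx2 cKO, while their median log2 fold change was 0.08. Of 6 oligodendrocyte precursor markers 5 rose, with sums of 46.8 and 53.6 CPM in control and 87.9 and 96.5 CPM in Lhx2 cKO. The remaining marker, Sox10, was not called, with overlapping groups and a log2 fold change of 0.58 (SE 0.427). The part of this lineage in the level of Lpar1 was not tested.

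For S1pr1, the vascular markers are the nearest reference. Of 8 endothelial markers 6 rose and 0 fell, with sums of 180 and 220 CPM in control and 270 and 316 CPM in Lhx2 cKO, or 147% of the control mean; 2 rose without control 1 and 3 without Lhx2 cKO 2. S1pr1 was at 103% of its control mean. Control 1 was the lowest library for S1pr1, for the endothelial sum and also for Enpp2, which was at 158% of its control mean. Pericyte markers summed to 97.3% of control, with 1 of 6 called higher and 1 lower. Microglia markers summed to 117 to 118 CPM in control and 239 to 264 CPM in Lhx2 cKO, with 8 of 9 called higher. For Enpp2, which is abundant in choroid plexus, none of the 6 choroid plexus markers listed was analysed here. The part of these cell types in the levels of the 8 genes was not tested.

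**Figure D4:**
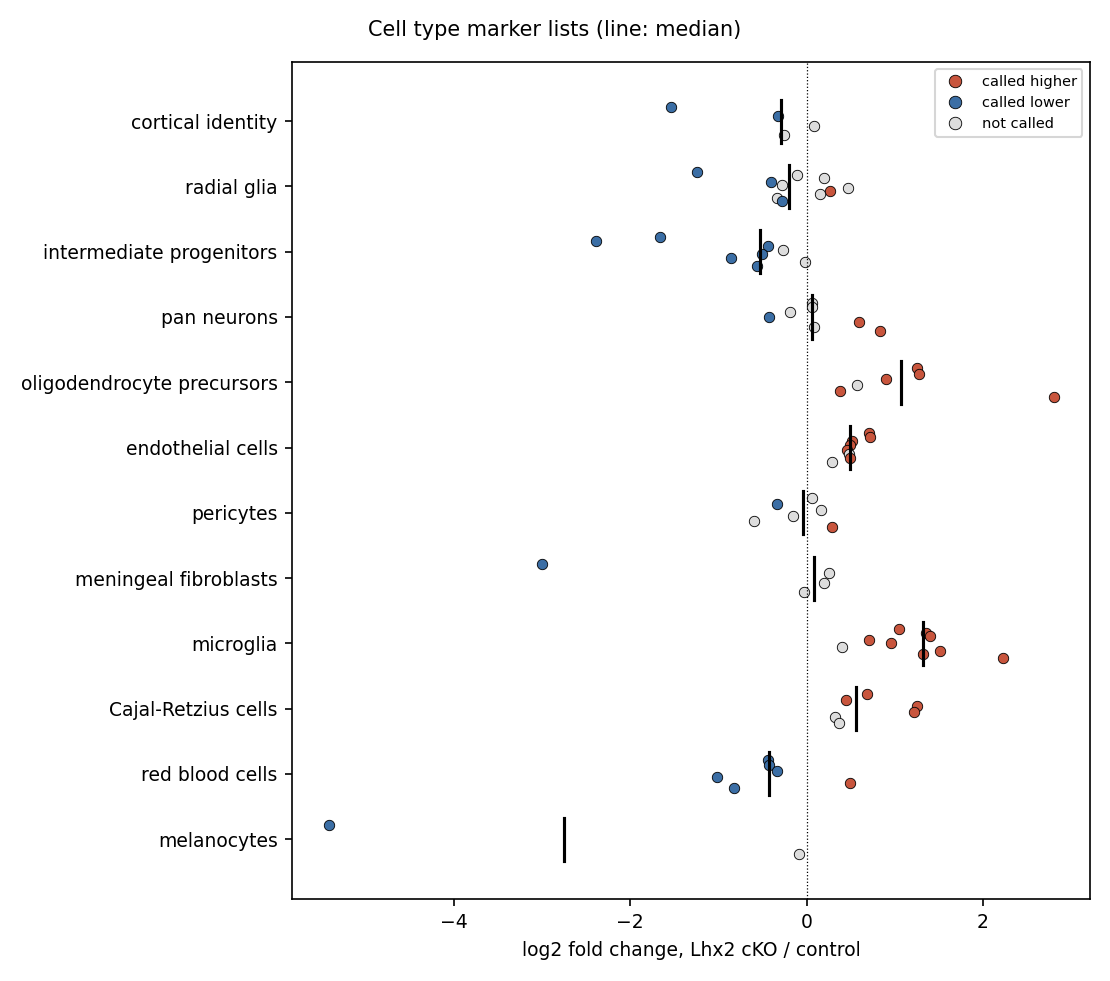
Log2 fold change of each marker gene in the table, by list, with a line at each list's median; red and blue are genes with an adjusted p under 0.05 in edgeR, higher and lower. Radial glia markers scatter around -0.20, oligodendrocyte precursor, endothelial and microglia markers lie to the right of 0, and Col1a1 stands apart from the other 3 meningeal markers.

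The rest of the pathway was read from a list of 64 other genes for receptors, lipid enzymes and carriers, signal transducers and target genes, of which 54 were in the table. In the edgeR test 13 of the 54 (24.1%) passed, 8 higher and 5 lower, against 20.8% of all genes, and the median log2 fold change was 0.02. With DESeq2 9 passed, 7 higher and 2 lower, and without Lhx2 cKO 2 it was 8. The remaining S1P receptor of the table, S1pr5, was at 2.19 ± 0.0469 CPM in control and 3.04 ± 0.629 CPM in Lhx2 cKO (SD, n = 2), with a log2 fold change of 0.47 (SE 0.33), and was not called.

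Among 9 genes of LPA synthesis, breakdown and related phosphatases 3 rose, 1 fell and 5 were not called. Plppr4, a neuronal membrane protein of the lipid phosphate phosphatase-related family that modulates LPA signals at synapses, rose from 5.81 and 5.72 CPM to 16.5 and 14.8 CPM (1.44 on the log2 scale, SE 0.174; adjusted p 2.29e-08 in edgeR). Its relative Plppr5 rose from 5.20 and 7.52 CPM to 14.2 and 13.7 CPM (1.13 on the log2 scale, SE 0.183; adjusted p 8.07e-06 in edgeR). The abundant relative Plppr3 was at 1593 ± 100.2 CPM in control and 1578 ± 46.2 CPM in Lhx2 cKO (SD, n = 2) and was not called, nor were Plppr1 and Plppr2, so 2 of the 5 family members were called. Plpp3, the cell-surface phosphatase that breaks down LPA and S1P, fell from 69.0 and 94.5 CPM to 53 and 61.7 CPM (-0.51 on the log2 scale, SE 0.113; adjusted p 7.34e-04 in edgeR), and its adjusted p was 0.121 without control 2. Agk, a kinase that makes LPA inside mitochondria, rose by 0.46 on the log2 scale, with an adjusted p of 0.00707 in edgeR, 0.107 without control 1 and 0.0607 without Lhx2 cKO 2.

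Of 11 genes of S1P synthesis, breakdown, export and carriage 2 rose, 1 fell and 8 were not called. Spns2, the transporter that exports S1P, rose from 62.6 and 66.2 CPM to 83.2 and 81.3 CPM (log2 fold change 0.35; adjusted p 0.00707 in edgeR), and shares 131 exon bases with Mybbp1a on the opposite strand in M21. Acer3, a ceramidase that frees sphingosine, rose at 0.96 from 2.60 CPM to 5.05 CPM (adjusted p 0.00994). Both lost their call without control 1, with adjusted p of 0.0868 and 0.0536 in edgeR, and Acer3 also without Lhx2 cKO 2 (0.0964). Apom, a carrier of S1P in plasma, fell at -1.0 from 3.95 ± 1.32 CPM to 1.97 ± 0.172 CPM (SD, n = 2; adjusted p 0.0214), and its adjusted p was 0.0553 with DESeq2 and 0.0594 to 0.356 without control 2, Lhx2 cKO 1 or Lhx2 cKO 2. The sphingosine kinase Sphk2, which makes S1P, was at -0.26 (SE 0.107) and the S1P lyase Sgpl1 at -0.04 (SE 0.0989), and neither was called. None of 5 ceramide synthases was called, with log2 fold changes from -0.13 to 0.29.

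Downstream of the receptors, 16 of 18 G proteins and effectors were not called. Plcb1, a phospholipase C driven by Gq, fell from 48.2 and 47.3 CPM to 28.3 and 27 CPM (-0.79 on the log2 scale, SE 0.107; adjusted p 2.93e-07 in edgeR), and shares 178 exon bases with 9630028H03Rik on the opposite strand in M21. Gnai1, a Gi subunit, rose at 0.32 (adjusted p 0.0244), and its adjusted p was 0.0691 with DESeq2 and 0.054 to 0.277 without control 1, Lhx2 cKO 1 or Lhx2 cKO 2. The G protein alpha subunits Gna12 at 0.10 (SE 0.0941) and Gna13 at 0.04 (SE 0.108) were not called.

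Of 10 genes known as targets of the transcriptional regulators YAP and SRF, 2 rose, 2 fell and 6 were not called. The immediate early genes Fos and Egr1, which many stimuli induce, rose by 1.10 (SE 0.101, adjusted p 2.09e-11 in edgeR) and 0.63 (SE 0.0998, adjusted p 5.75e-06 in edgeR) on the log2 scale. Ccn1, a secreted matrix protein, fell at -0.35 (adjusted p 0.0183 in edgeR, 0.0545 with DESeq2, 0.211 without control 2 and 0.152 without Lhx2 cKO 1), and Ajuba, a LIM-domain adaptor, fell at -0.53 (adjusted p 0.0301 in edgeR, 0.0743 with DESeq2, and 0.0699 to 0.236 without control 1, control 2 or Lhx2 cKO 2). Ccn2 at 0.31 (SE 0.274) and Srf at -0.28 (SE 0.111) were not called, so the list had no common direction, with a median of 0.01.

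**Figure D5:**
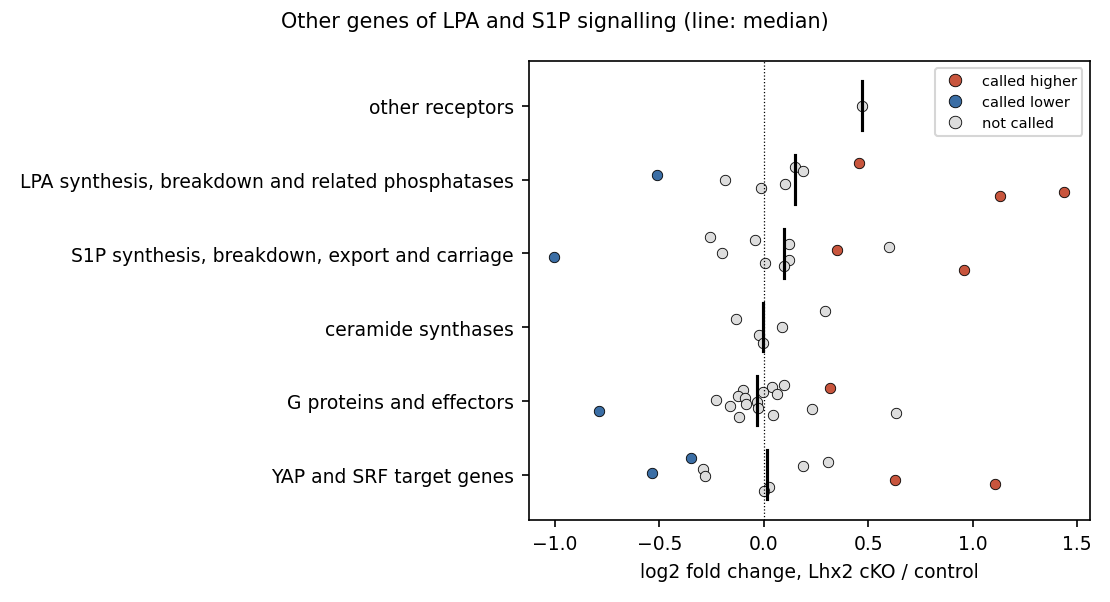
Log2 fold change of the 54 other pathway genes in the table, by list, with a line at each list's median; red and blue are genes with an adjusted p under 0.05 in edgeR, higher and lower. Plppr4 at 1.44 and Plppr5 at 1.13 lie furthest right in their list, Apom at -1.0 lies furthest left of all, and list medians other than that of the single other receptor lie between -0.03 and 0.15.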

How the data were processed

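Raw read counts per gene for the 4 libraries were used as deposited by the authors. Per the submitters' processing notes, Trim Galore, Subread, featureCounts, edgeR and mm39 were used; versions, annotation and strand setting are not given in the sources used here. The deposited gene length in bases served for TPM. The authors' log2 fold change, log2 CPM, p-value, adjusted p-value and -log10 columns were deposited in the same table, and only the log2 fold change of Lpar1 is quoted. The lowest row total was 102 counts, so lower genes had been removed.

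Counts were tested with edgeR 4.0.16 in R 4.3.3: TMM, filterByExpr with a minimum count of 10 (all 8 genes passed), glmQLFit and glmQLFTest without covariates, two-sided, Benjamini-Hochberg over 13288 genes. A gene with an adjusted p under 0.05 is called. SE is the absolute log2 fold change over the square root of F. The fit was tested on simulated data. The 2 libraries of each group differed by more than counting noise, with a chi-square of 13.9 (control) and 14.3 (Lhx2 cKO) per degree of freedom, and were kept as separate replicates. The floors cover counting error only, while the SE includes the variation between libraries as estimated by the fit.

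The genes and lists were chosen with earlier results of these data known. Named were all 8 genes and Lhx2, up to 4 called genes per pathway list and up to 3 per marker list by smallest p where they bear on a result, and the 5 genes nearest to Lpar1. The remaining genes named without a call show the spread of their list and were chosen after their values were seen. The marker lists for pan neurons, Cajal-Retzius cells, red blood cells and melanocytes are plotted only. Some cortical marker genes are not reported here, and their list was summed without them. Alternatives were other scalings, filters, a replicate block, DESeq2 1.42.0 and leaving out each library.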

Additional observations from a re-analysis of the deposited data

How the results depend on the processing

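With every library kept, the log2 fold change of Lpar1 lay between -3.733 and -3.715 under all scalings, filters, the replicate block and DESeq2, and between -3.79 and -3.66 when 1 library was left out. Leaving out 1 library gave -0.46 to 0.29 for Lpar6, -0.20 to 0.31 for S1pr1 and 0.38 to 1.0 for Enpp2. A lone library is then assumed to vary like the other group. These fits called 1633 to 2396 genes in all against 2758 with all libraries, 865 to 1395 higher and 768 to 1079 lower, the fewest without Lhx2 cKO 2. Pathway genes called ranged from 8 to 12 against 13, with 4 to 9 higher and 3 to 5 lower; DESeq2 called 2 lower. Fewer libraries were fitted there, and for DESeq2 the cause was not tested. Without division by gene length Lpar1 made up 47.2% of the LPA receptor level in control and 5.47% in Lhx2 cKO, by construction of the scale.

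Whether the replicate numbers pair libraries of the 2 groups is not given in the sources used here. Deviations of replicate 1 from replicate 2 correlated across genes at 0.001 between the groups. With a single such deviation per group, this value cannot exclude pairing. Under the replicate block the calls numbered 2874 over all genes and 13 in the pathway list, Lpar1 was at -3.72 and Enpp2 at 0.68. Scalings moved the median of all genes by at most 0.0104 on the log2 scale. With 2 libraries a group, differences as small as those of Lpar2, Lpar4, S1pr2 and S1pr3, with SE of 0.124 to 0.203, are not settled at this replication.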
